A study of Mus musculus with 13 samples.

Results

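The genes described here were 46 members of the cellular response to misfolded protein, chosen by name from the 49315 genes counted in each midbrain library. They were 17 cytosolic and mitochondrial heat shock genes, 19 genes of the endoplasmic reticulum (ER) unfolded protein response and 10 genes of the integrated stress response. All 46 passed the filter on low counts, which left 19360 genes to be tested. RNA-Seq had been performed on the midbrains of 13 male mice of a C57BL/6J background. Every mouse carried Ripk3fl/fl, in which the gene for the kinase RIPK3 is flanked by loxP sites, and every mouse had been given tamoxifen at 60 mg/kg. Cre+ mice also carried Aldh1l1Cre, a tamoxifen-inducible recombinase driven by an astrocyte promoter, while their Cre- littermates did not. Mice had then received 5 daily injections of saline or of MPTP at 20 mg/kg, a toxin whose metabolite is taken up by dopaminergic neurons, and tissue was harvested 3 days later. There were 3 mice each in the Cre- Saline, Cre+ Saline and Cre- MPTP groups, and 4 in the Cre+ MPTP group. Because whole midbrain was sequenced, a gene's level could not be assigned to a cell type, and fewer cells of a type cannot be told apart from less RNA per cell.

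Cells meet misfolded protein with separate programs in each compartment. In the cytosol, HSF1 is released from chaperones and binds heat shock elements in the promoters of chaperone genes such as Hspa1a, Hspb1 and Dnajb1. In the ER, the sensors ATF6, IRE1 (encoded by Ern1) and PERK (encoded by Eif2ak3) raise chaperones, folding enzymes and degradation factors, with IRE1 acting through splicing of Xbp1 mRNA. PERK also feeds the integrated stress response, in which phosphorylation of eIF2α slows translation while ATF4 is translated and switches on genes for amino acid supply and for stress adaptation. Splicing of Xbp1 and translation of Atf4 are not seen in counts per gene.

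Elements bound by the factors of these programs were searched for in the promoters. RefSeq promoter windows on GRCm38.p6, running from 250 bases before to 50 bases after the start of a gene, were matched for 39 of the 46 members, and Hspa8, Hsp90aa1, Hsp90ab1, Hsf1, Atf6, Manf and Hyou1 had none. Both strands were searched for exact matches only, so an element that departs from the letters given was not counted. The ER stress element, CCAAT and CCACG with 9 bases between them, was found in 7 of the 39 members (Hspa5, Hsp90b1, Calr, Canx, Pdia6, Dnajc3 and Creld2), against 0.137% of 27025 genes with a window. A heat shock element of 3 alternating units (GAA, TTC and GAA, or TTC, GAA and TTC, each 2 bases apart) was found in Hspd1, Hspe1 and Hsph1, against 0.662% of all genes. Hspd1 and Hspe1 are divergent neighbours that encode the mitochondrial chaperonin pair, and their windows share the same site, while the windows of Hspa1a, Hspb1 and Dnajb1 held no match to these letters. The C/EBP-ATF element TGATGCAA was found in Atf3, Chac1 and Herpud1, against 1.03% of all genes, and the UPR element TGACGTGG in none of the 39, against 0.714%. The stretches that follow show, in capitals, the matches of these elements upstream of chaperone and stress response genes. The last pair, with no match to these letters, belongs to the members that passed the test after MPTP, and shows the 150 bases before their start sites.
Hspe1, heat shock elements, chr1:55088019-55088116, plus strand: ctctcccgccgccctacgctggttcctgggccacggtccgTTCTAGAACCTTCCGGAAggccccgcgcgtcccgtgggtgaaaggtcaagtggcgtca
Hspa5, ER stress element, chr2:34771985-34772083, plus strand: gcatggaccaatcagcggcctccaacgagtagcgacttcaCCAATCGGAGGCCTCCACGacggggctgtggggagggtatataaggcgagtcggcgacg
Hsp90b1, ER stress elements on both strands, chr10:86705493-86705694, minus strand: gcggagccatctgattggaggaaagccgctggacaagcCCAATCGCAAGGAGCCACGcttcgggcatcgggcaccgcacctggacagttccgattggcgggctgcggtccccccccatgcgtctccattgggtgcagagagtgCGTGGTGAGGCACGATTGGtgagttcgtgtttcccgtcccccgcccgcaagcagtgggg
Canx, ER stress element, chr11:50325760-50325858, minus strand: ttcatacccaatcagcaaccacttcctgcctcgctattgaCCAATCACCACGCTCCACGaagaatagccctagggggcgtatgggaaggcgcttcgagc
Atf3, C/EBP-ATF element on the opposite strand, chr1:191183396-191183483, minus strand: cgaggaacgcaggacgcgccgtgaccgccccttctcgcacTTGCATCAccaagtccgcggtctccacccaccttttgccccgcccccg
Hspb1, chr5:135887769-135887918, plus strand: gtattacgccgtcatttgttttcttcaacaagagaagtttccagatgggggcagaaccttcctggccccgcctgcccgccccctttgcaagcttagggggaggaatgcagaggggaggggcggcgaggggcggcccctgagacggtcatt
Ddit4, chr10:59951771-59951920, minus strand: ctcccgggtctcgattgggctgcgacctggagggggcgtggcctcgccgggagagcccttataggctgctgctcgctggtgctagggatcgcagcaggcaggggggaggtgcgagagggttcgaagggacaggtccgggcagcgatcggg

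One library has to be set out before the comparisons. Library totals ran from 11489150 to 29397278 counts, and Cre- MPTP replicate 1 had the lowest total. It also had 21101 genes with a count and 1.12% of counts from mitochondrial genes, against 25432 to 27186 genes and 3.55% to 6.06% in the other 12 libraries. It was the highest of the 13 libraries for 21 of the 46 members and the lowest for 15, so that 78.3% of the members had an extreme there, close to the 75.4% of all genes tested. Calls in comparisons that use the Cre- MPTP group are therefore given with and without this library. All groups share the estimate of the spread between mice in the main fit. The p-values for MPTP in Cre+ mice and for the genotypes under saline therefore also draw on this library. Those comparisons were not refitted without it alone, so an absence of calls there may partly reflect its spread. Ripk3 itself had 4 to 40 counts per library with overlapping ranges in the 4 groups, too few to check the genotype of single mice. Counts from all 8 dopaminergic neuron markers and all 7 astrocyte markers were present in every group.

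At rest, the cytosolic HSP90 genes and Hspa8 far exceeded Hspa1a, Hspa1b and Hspb1. Levels between genes are compared as CPM, the counts scaled to the total of each library, per kilobase of exon (CPM per kb), averaged over the 3 Cre- Saline mice. Among heat shock genes the cytosolic HSP90 gene Hsp90ab1 stood at 511 CPM per kb, the constitutive HSP70 gene Hspa8 at 345 and Hsp90aa1 at 300, while the stress-inducible HSP70 genes Hspa1a and Hspa1b stood at 2.74 and 1.03 and the small heat shock gene Hspb1 at 8.64. Among ER genes the calcium-binding lectin chaperones Calr and Canx stood at 122 and 91.2 CPM per kb, the ER HSP90 gene Hsp90b1 at 85.4 and the ER HSP70 gene Hspa5 (BiP) at 62.2. The sensors were low, with Atf6 at 4.27, Eif2ak3 at 4.56 and Ern1 at 2.11 CPM per kb. In the integrated stress response Atf4 stood at 63.7 and the mTORC1 inhibitor Ddit4 at 48.2 CPM per kb, with the asparagine synthetase gene Asns at 32.7. Atf3 and the pseudokinase gene Trib3 were scarcely expressed, at 0.431 and 0.365.

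**Figure D1:**
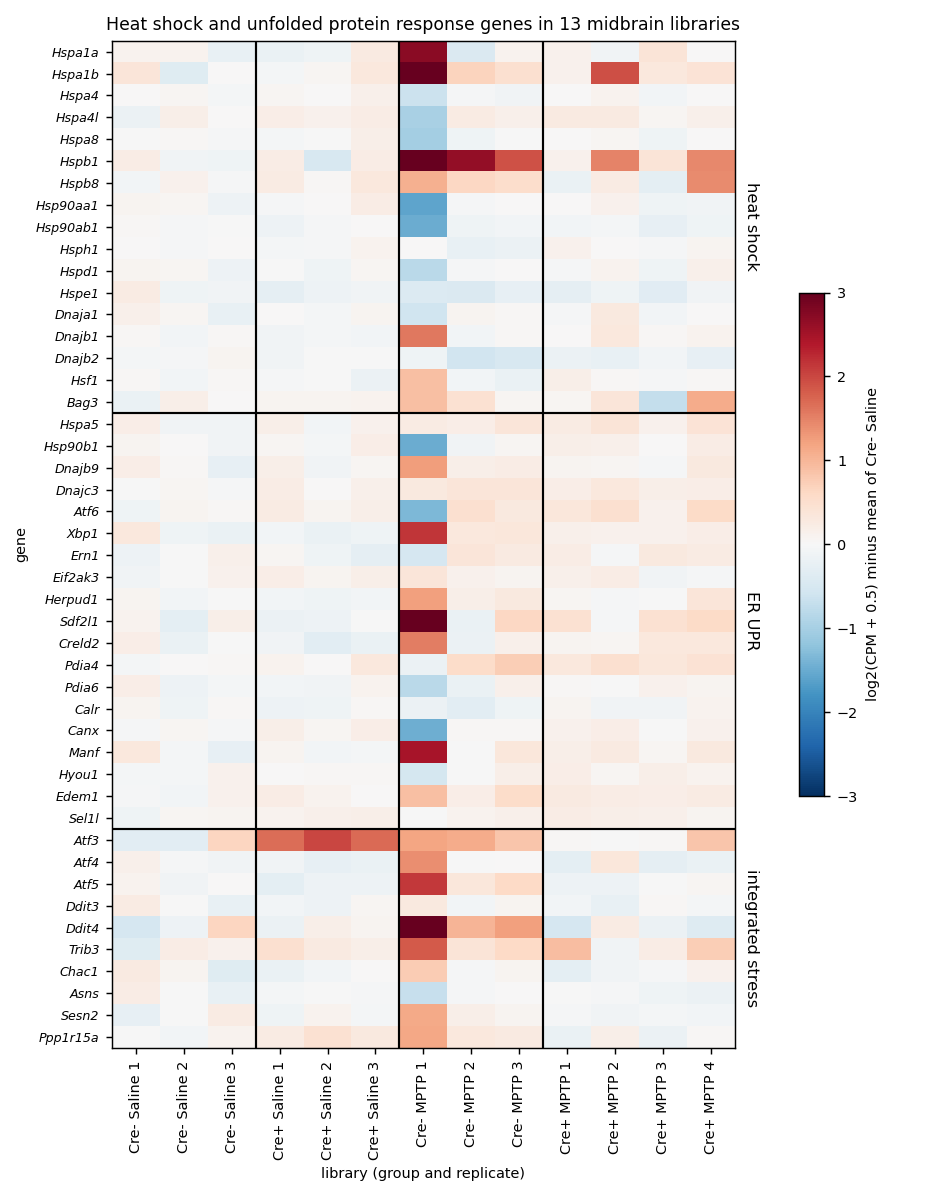
Rows are the 46 genes in their 3 classes, columns are the 13 mice, and colour is log2(CPM + 0.5) minus the mean of the Cre- Saline mice. The column of Cre- MPTP replicate 1 departs in both directions across all 3 classes, whereas Hspb1 and Ddit4 are raised in each of the 3 Cre- MPTP mice and Atf3 in each of the 3 Cre+ Saline mice.

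Comparing MPTP with saline in Cre- mice asked which of these programs moved when astrocytes retained Ripk3. Hspb1, the small heat shock protein HSP27, and Ddit4 (REDD1), a stress-induced inhibitor of mTORC1 and a known target of both ATF4 and glucocorticoid receptor, rose, and no other member passed an adjusted p of 0.05 by edgeR. Thus 2 of 46 members were called, against 3.18% of all genes tested, so the count itself lay near the background. Hspb1 had 10.4, 8.24 and 8.03 CPM in the Cre- Saline mice and 388, 57.5 and 34.5 CPM in the Cre- MPTP mice. All MPTP values lay above all saline values, with replicate 1 far above the other two. The log2 fold change came to 4.16 (SE 0.80, adjusted p = 0.0118, edgeR quasi-likelihood F-test, Benjamini-Hochberg adjusted). Without Cre- MPTP replicate 1 it was 2.37 (SE 0.38, adjusted p = 0.00162, same test). Ddit4 had 54.3, 69.3 and 120 CPM in Cre- Saline mice and 751, 155 and 181 CPM in Cre- MPTP mice, again with no overlap. Its log2 fold change came to 2.16 (SE 0.52, adjusted p = 0.0443, edgeR quasi-likelihood F-test), and 1.06 (SE 0.27, adjusted p = 0.0273) without replicate 1. Both calls were lost when any single Cre- Saline mouse was left out (adjusted p 0.0624 to 0.073 for Hspb1 and 0.062 to 0.202 for Ddit4) and in a fit to the compared groups alone (0.16 and 0.421). With a term for replicate number in edgeR, Hspb1 was called (adjusted p = 0.0471) and Ddit4 was not (0.177). Over all 13 libraries DESeq2 called both (adjusted p = 9.72e-08 for Hspb1 and 0.000826 for Ddit4). So did limma-voom (adjusted p = 9.9e-05 and 0.00052).

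Markers of other responses moved in the same mice as Hspb1 and Ddit4. The summed level of 8 glucocorticoid-responsive genes was 259 to 370 CPM in Cre- Saline and 834 to 999 CPM in Cre- MPTP, with 298 to 459 CPM in Cre+ MPTP, and 5 of the 8 rose in Cre- mice (Errfi1, Sult1a1, Sgk1, Zbtb16 and Fkbp5). The summed level of 7 astrocyte markers was 2426 to 2940 CPM in Cre- Saline, 4035 to 4486 CPM in Cre- MPTP and 2845 to 3359 CPM in Cre+ MPTP, with Aldh1l1 and Gfap called higher in the Cre- comparison. The summed level of 6 neutrophil markers was 0.119 to 0.986 CPM in Cre- Saline and 9.07 to 60.5 CPM in Cre- MPTP, and 0.61 to 3.36 CPM in Cre+ MPTP. In each case the Cre- MPTP values lay above those of Cre- Saline and of Cre+ MPTP, and the part of these responses in the Hspb1 and Ddit4 values was not tested.

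With Cre- MPTP replicate 1 left out, the Cre- comparison called a wider set drawn from each class. A total of 7 members passed the test out of 46, against 9.38% of all genes tested in that fit. The added genes were named after their values were seen. Pdia4, an ER protein disulfide isomerase, had 39.2, 41.4 and 42.1 CPM in Cre- Saline and 59.8 and 68.8 CPM in Cre- MPTP replicates 2 and 3 (log2 fold change 0.66, SE 0.10, adjusted p = 0.000902, edgeR quasi-likelihood F-test). It was 36.0 CPM in replicate 1, below every saline mouse. Dnajc3, the ER co-chaperone p58IPK that restrains PERK, had 68.7 to 73.0 CPM in Cre- Saline and 89.8 and 91.0 CPM in those MPTP mice (log2 fold change 0.37, adjusted p = 0.0121, same test). Edem1, which directs misfolded glycoproteins to degradation, had a log2 fold change of 0.39 (adjusted p = 0.0451), and Atf5, an ATF4-related factor, one of 0.48 (adjusted p = 0.0181). Dnajb2, a neuron-enriched J-domain protein, fell, with 192 to 213 CPM in Cre- Saline, 135 and 144 CPM in replicates 2 and 3, and 183 CPM in replicate 1 (log2 fold change -0.52, SE 0.08, adjusted p = 0.00106, same test). Over all 13 libraries, DESeq2 called Dnajc3, Edem1 and Atf5 (adjusted p = 0.000845, 0.022 and 0.0173) but not Pdia4 or Dnajb2. There limma-voom called each of the added genes (adjusted p 0.000123 to 0.00702). Of these genes, Dnajc3, Edem1, Atf5 and Dnajb2 did not overlap between all 3 MPTP and all 3 saline mice. In all, 16 of the 46 members did not overlap in this comparison, against 15.1% of all genes tested.

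**Figure D2:**
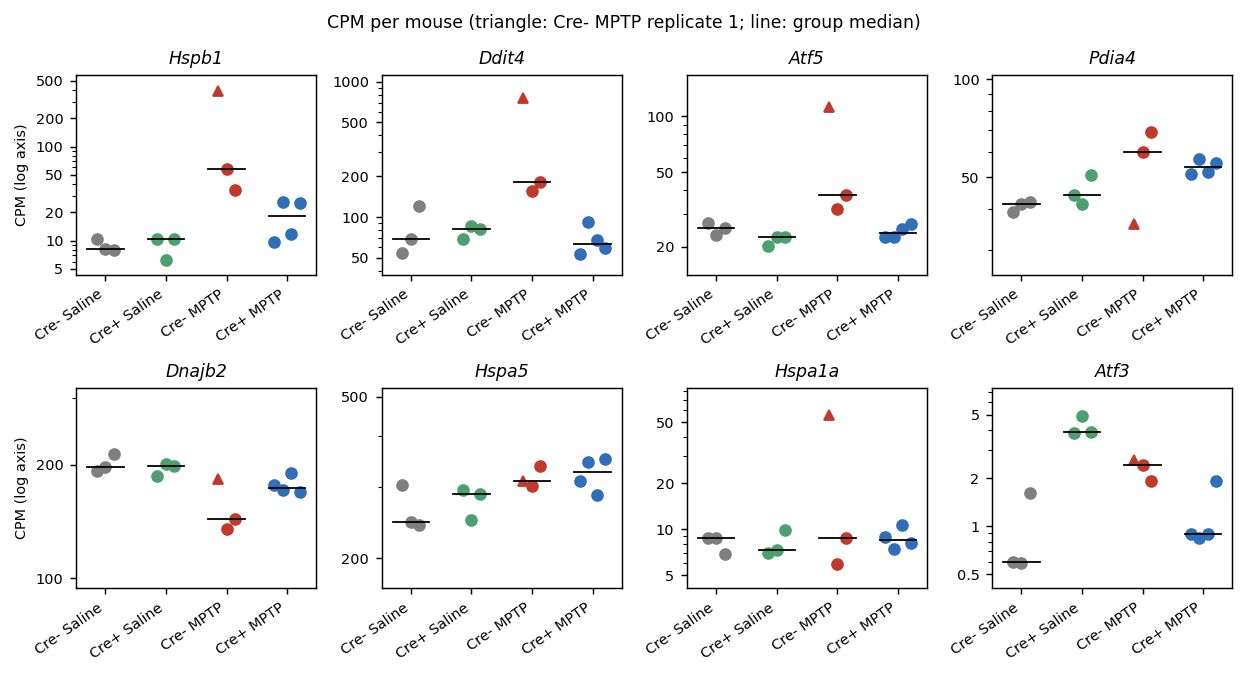
Each panel plots CPM on a log axis for every mouse in the 4 groups, with a line at the group median and a triangle for Cre- MPTP replicate 1. Hspb1 and Ddit4 separate the Cre- MPTP mice from all other groups, while Hspa1a is high only at the triangle (55.8 CPM) and Pdia4 has its lowest value there (36.0 CPM).

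By class, fitted values for MPTP in Cre- mice lay on both sides of 0 among the heat shock genes and mostly above 0 among the integrated stress response genes. The median log2 fold change of the heat shock members was -0.13, with 7 above and 10 below 0, that of the ER members was 0.27 and that of the integrated stress response members 0.64, beside 0.03 for all genes tested. Single members ran from -0.44 to 4.16 among heat shock genes, from -0.36 to 2.01 among ER genes and from -0.22 to 2.16 in the integrated stress response. Without replicate 1 the medians were -0.02, 0.20 and 0.21, beside -0.01. Fitted values were positive for 14 of 19 ER members and 9 of 10 integrated stress response members, and for 15 and 7 without replicate 1. Hspa1a and Dnajb1, other textbook HSF1 targets, were far above saline in replicate 1 alone. Hspa1a had 8.77, 8.79 and 6.83 CPM in Cre- Saline and 55.8, 5.90 and 8.75 CPM in Cre- MPTP, so that its log2 fold change of 1.51 (adjusted p = 0.296, edgeR quasi-likelihood F-test) became -0.14 without replicate 1. Dnajb1, the HSP40 partner of HSP70 and also chosen after its values were seen, likewise had 62.8 to 68.1 CPM in Cre- Saline and 201, 62.5 and 68.3 CPM in Cre- MPTP. Hspa1b was above every saline mouse in all 3, at 26.8, 4.75 and 4.16 CPM against 3.73, 2.07 and 2.85 CPM (log2 fold change 2.01, adjusted p = 0.203, edgeR quasi-likelihood F-test), and 0.63 without replicate 1 (adjusted p = 0.463). Hspa1a and Hspa1b were chosen after their values were seen, and as near-identical copies they are uncertain under counting of unique hits.

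None of the 6 most abundant chaperones was called, and for 5 of them, all but Calr, replicate 1 was the lowest of all libraries. Hsp90aa1 had 1249, 1222 and 1063 CPM in Cre- Saline against 391, 1155 and 1177 in Cre- MPTP, Hsp90ab1 had 1572, 1506 and 1524 against 544, 1414 and 1444, and Hspa8 had 1480, 1529 and 1438 against 731, 1364 and 1472. Only replicate 1 lay far below the saline mice, and the log2 fold changes of -0.38, -0.44 and -0.32 (adjusted p 0.448 to 0.56, edgeR quasi-likelihood F-test) became -0.01, -0.10 and -0.06 without it. In the ER, Canx had 417, 448 and 418 CPM in Cre- Saline and 154, 437 and 439 CPM in Cre- MPTP. Hsp90b1 had 366, 347 and 320 CPM and then 122, 320 and 360 CPM, the same pattern. Calr was 374, 321 and 359 CPM in saline and 308, 283 and 319 CPM with MPTP, with no overlap and with replicate 1 between the other MPTP mice, a log2 fold change of -0.21 (SE 0.12, adjusted p = 0.416). Hspa5, the textbook reporter of ER stress, was 303, 245 and 242 CPM in Cre- Saline and 310, 301 and 338 CPM in Cre- MPTP (log2 fold change 0.27, SE 0.14, adjusted p = 0.374), and here replicate 1 lay within the range of the other mice. Of the 7 members whose promoters held the ER stress element, edgeR called Dnajc3 alone without replicate 1 and none with it, while DESeq2 and limma-voom called Dnajc3 over all 13 libraries (adjusted p = 0.000845 and 0.00702). Over all 13 libraries limma-voom also called Hspa5 higher, which DESeq2 did not call.

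By edgeR over all 13 libraries, none of the sensors and master factors was called at the level of its own mRNA. Hsf1 had 39.3 to 42.6 CPM in Cre- Saline and 77.1, 39.1 and 36.0 CPM in Cre- MPTP (log2 fold change 0.29, adjusted p = 0.557, edgeR quasi-likelihood F-test). Ern1 had 15.4 to 19.2 CPM and then 12, 22.1 and 20.8 CPM, and Eif2ak3 had 25.6 to 29.8 CPM and then 35.4, 30.0 and 29.2 CPM. Atf6 had 36.2 to 41.6 CPM in saline and 15.3, 54.7 and 48.3 CPM with MPTP, so its fitted difference of 0.01 on the log2 scale was 0.39 (adjusted p = 0.0651) without replicate 1, and 0.40 and called (adjusted p = 0.0382) without Cre+ MPTP replicate 4 as well. Xbp1 was above every saline mouse in each Cre- MPTP mouse, at 333, 94.4 and 96.3 CPM against 94.1, 69.2 and 66.2 CPM, by a log2 fold change of 1.19 (SE 0.39, adjusted p = 0.161) or 0.32 (adjusted p = 0.122) without replicate 1. Xbp1 was called without Cre- MPTP replicate 2 (adjusted p = 0.04), by DESeq2 (0.0468) and by limma-voom (0.00546). Atf4 had 122, 106 and 101 CPM in Cre- Saline and 289, 109 and 110 CPM in Cre- MPTP, and its log2 fold change of 0.62 (adjusted p = 0.375) was -0.0047 without replicate 1. Ddit3, the pro-apoptotic factor CHOP, had 26.1 to 36.8 CPM and then 37.7, 29.2 and 32.6 CPM, with overlap. Asns, an ATF4 target, had 75.8 to 104 CPM and then 54.5, 86.2 and 88.9 CPM, with replicate 1 lowest.

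**Figure D3:**
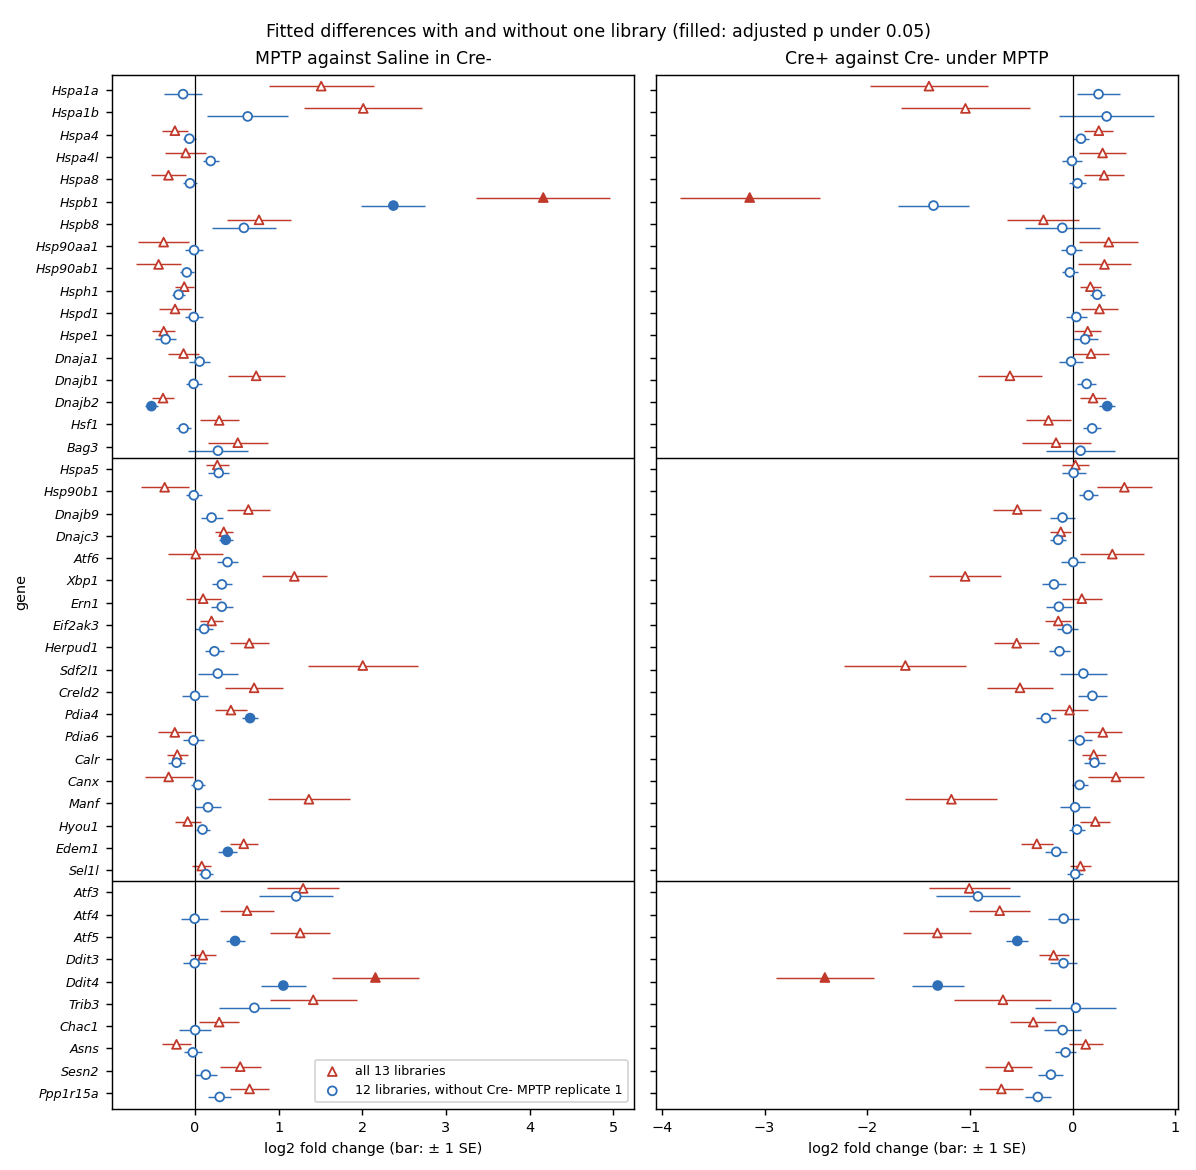
For each gene, the log2 fold change with its SE is drawn for all 13 libraries (triangles) and for 12 libraries without Cre- MPTP replicate 1 (circles), with filled symbols past an adjusted p of 0.05. Hspb1 and Ddit4 are filled in both fits for MPTP in Cre- mice, and Ddit4 in both for the genotypes under MPTP, where Hspb1 moves from -3.14 to -1.35.

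In Cre+ mice, in which Ripk3 was to be deleted from astrocytes, MPTP called none of the 46 members, and none of the genes tested (0%) by the edgeR quasi-likelihood F-test. Only 1 member, Atf3, had an unadjusted p under 0.05 in that fit, against 3.47% of all genes. The number was 12 in an edgeR fit to the compared groups alone and 11 with limma-voom. It was 10 by edgeR with Cre- MPTP replicate 1 and Cre+ MPTP replicate 4 both left out. The share of all genes at that cut is not given for these 3 fits. DESeq2 called 1 member (Atf3, lower), against 0.45% of all genes, and limma-voom 2 (Atf3 and Ppp1r15a, both lower), against 1.52%. Hspb1 had 10.5, 6.22 and 10.4 CPM in Cre+ Saline and 9.65, 25.9, 11.8 and 24.9 CPM in Cre+ MPTP, a log2 fold change of 1.00 (SE 0.69, adjusted p = 1.00, edgeR quasi-likelihood F-test). The ranges overlapped, with 3 of the 4 MPTP mice above every saline mouse. Ddit4 had 68.3, 86.2 and 81.3 CPM and then 53.7, 91.6, 68.1 and 58.8 CPM (log2 fold change -0.21, SE 0.47, adjusted p = 1.00, same test). The median log2 fold changes of the 3 classes were 0.04 for heat shock, 0.12 for the ER and -0.04 for the integrated stress response, beside 0.00 for all genes. The ER members were positive in 17 of 19, with Hspa5 at 294, 248 and 287 CPM in saline and 310, 344, 286 and 350 CPM with MPTP, although no member passed the test. CPM did not overlap between Cre+ MPTP and Cre+ Saline for 8 of 46 members, against 9.66% of all genes tested. Those higher were Xbp1, Herpud1, Creld2, Pdia4, Hyou1 and Dnajb1, and those lower Atf3 and Ppp1r15a. Xbp1 had 71.2, 66.1 and 68.7 CPM in Cre+ Saline and 82.8 to 86.8 CPM in Cre+ MPTP (log2 fold change 0.30, SE 0.36). Pdia4 had 44.2, 41.5 and 50.7 CPM and then 51.3 to 57.1 CPM (log2 fold change 0.24, SE 0.18), so that these ER genes lay above saline after MPTP in Cre+ mice also, without being called.

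Comparing Cre+ with Cre- mice under MPTP asked whether astrocytic Ripk3 altered these programs after injury. Hspb1 and Ddit4 were lower in Cre+ mice and were the 2 members called, against 1.54% of all genes. This comparison shares its Cre- MPTP mice with the one before, so it is not independent of it. Hspb1 was 9.65 to 25.9 CPM in the 4 Cre+ mice, below the 34.5 to 388 CPM of the Cre- mice, with a log2 fold change of -3.14 (SE 0.68, adjusted p = 0.0417, edgeR quasi-likelihood F-test). Without Cre- MPTP replicate 1 it was -1.35 (SE 0.35, adjusted p = 0.0555, same test), which no longer passed. The call was also lost without any 1 of the 4 Cre+ MPTP mice (adjusted p 0.0631 to 0.143). With Cre- MPTP replicate 1 and Cre+ MPTP replicate 4 both left out, Hspb1 was called (log2 fold change -1.57, adjusted p = 0.0233, same test). Ddit4 was 53.7 to 91.6 CPM in Cre+ mice, below 155 to 751 CPM in Cre- mice, with a log2 fold change of -2.41 (SE 0.48, adjusted p = 0.0289, same test) and of -1.31 (SE 0.25, adjusted p = 0.0114) without replicate 1. It was no longer called when Cre+ MPTP replicate 1, 3 or 4 was left out (adjusted p 0.103, 0.0972 and 0.0873). In fits to the compared groups alone neither was called (adjusted p 0.364 for Hspb1 and 0.298 for Ddit4). Nor was either called with a term for replicate number in edgeR (adjusted p = 0.241 and 0.222). Over all 13 libraries DESeq2 called both (adjusted p = 7.92e-05 for Hspb1 and 5.21e-05 for Ddit4). So did limma-voom (adjusted p = 0.00165 and 0.000148). Leaving out Cre- MPTP replicate 2 instead, which gives replicate 1 more weight, raised the members called to 10, all lower in Cre+ mice, against 9.51% of all genes in that fit.

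Fitted values of the integrated stress response lay mostly below 0 between the genotypes under MPTP. The median log2 fold change was -0.69, with 9 of 10 members below 0, against 0.17 for heat shock, -0.03 for the ER and 0.03 for all genes. Without replicate 1 these were -0.15, 0.08, 0.01 and 0.01. CPM did not overlap between the genotypes for 8 of 46 members, against 11.3% of all genes, and 5 of the 8 were of the integrated stress response (Atf3, Atf5, Ddit4, Sesn2 and Ppp1r15a), each lower in Cre+ mice. Atf5 had 111, 31.8 and 38.0 CPM in Cre- MPTP and 22.5 to 26.3 CPM in Cre+ MPTP, with a log2 fold change of -1.32 (adjusted p = 0.0824, edgeR quasi-likelihood F-test) that was -0.54 and called (adjusted p = 0.0138) without replicate 1. In that fit 3 members were called, against 3.18% of all genes tested, namely Ddit4, Atf5 and Dnajb2, the last higher in Cre+ mice (log2 fold change 0.34, adjusted p = 0.0274). Xbp1 was lower in Cre+ MPTP at 82.8 to 86.8 CPM against 94.4 to 333 CPM (log2 fold change -1.05, adjusted p = 0.19), and was called without Cre- MPTP replicate 2 (adjusted p = 0.036). Calr was the 1 member higher without overlap, at 325 to 376 against 283 to 319 CPM (log2 fold change 0.21, adjusted p = 0.344). Hspa1a, at 7.44 to 10.7 CPM in Cre+ MPTP, differed from the Cre- mice by -1.40 on the log2 scale with replicate 1 and by 0.25 without it, neither of them called. It was called without Cre- MPTP replicate 2 (adjusted p = 0.0393, edgeR quasi-likelihood F-test).

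Under saline, the genotypes differed in none of the 46 members and in none of the genes tested (0%) by the edgeR quasi-likelihood F-test. Atf3, an immediate stress-responsive transcription factor, was the 1 member with an unadjusted p under 0.05, against 0.909% of all genes, and is described because its values were seen to stand apart. It had 15, 15 and 44 counts in Cre- Saline mice and 98, 121 and 102 counts in Cre+ Saline mice, or 0.595, 0.586 and 1.61 CPM against 3.86, 4.92 and 3.88 CPM, with no overlap (log2 fold change 2.17, adjusted p = 1.0, edgeR quasi-likelihood F-test). DESeq2 and limma-voom each called it (adjusted p = 0.00384 and 0.00284), and no other member, against 0.0106% and 0.0155% of all genes. With MPTP it was 2.60, 2.42 and 1.92 CPM in Cre- mice and 0.887, 0.839, 0.887 and 1.91 CPM in Cre+ mice. The log2 fold change with MPTP was -1.89 in Cre+ mice (adjusted p = 0.247, edgeR quasi-likelihood F-test) and 1.29 in Cre- mice (adjusted p = 0.174), neither called by that test. DESeq2 and limma-voom each called Atf3 in both comparisons, lower with MPTP in Cre+ mice and higher with MPTP in Cre- mice. The summed level of 8 immediate early genes was 303 to 377 CPM in Cre+ Saline and 158 to 271 CPM in Cre- Saline, with none of the 8 called, and its part in the Atf3 values was not tested.

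A test of the interaction asked whether the response to MPTP itself differed between genotypes. No member passed it, against 0.0103% of all genes, with 5 members at an unadjusted p under 0.05 (Atf3, Ddit4, Ppp1r15a, Hspb1 and Atf5), against 5.76% of all genes. DESeq2 called 1 member, Atf3, against 1.19% of all genes, and limma-voom 5, against 3.56%. The limma-voom calls were Atf3, Ppp1r15a, Hspb1 (adjusted p = 0.0441) and Ddit4 (adjusted p = 0.00353), each below 0, and Dnajb2, above 0. The interaction was -3.17 (SE 0.99, adjusted p = 0.454) for Hspb1 and -2.36 (SE 0.69, adjusted p = 0.389) for Ddit4 on the log2 scale, by the edgeR quasi-likelihood F-test. For Atf3 it was -3.18 (adjusted p = 0.137). Without Cre- MPTP replicate 1, Atf3 was the 1 member called (-3.09, adjusted p = 0.0262), against 1.03% of all genes in that fit.

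Other genes of these pathways, from lists that also were drawn up with earlier results known, were counted in the same fits. Of 43 other heat shock genes, 1 was called with MPTP in Cre- mice, where 3.18% of all genes tested were called. It was Cryab, the lens and glial small heat shock protein αB-crystallin, which fell from 121, 112 and 130 CPM to 34.5, 54.7 and 46.5 CPM (log2 fold change -1.42, SE 0.28, adjusted p = 0.0146, edgeR quasi-likelihood F-test), a call lost without Cre- Saline replicate 1 or 3 (adjusted p = 0.0528 and 0.0606). Cryab thus fell where Hspb1, of the same small heat shock family, rose. Oligodendrocyte markers, summed over 6 genes, were 12490 to 17150 CPM in Cre- Saline and 9167 to 11780 CPM in Cre- MPTP, with Cnp and Mog called lower, and their part in the Cryab values was not tested. None of 39 other ER genes was called by the edgeR test, with 9 at an unadjusted p under 0.05, against 15% of all genes, and 1 of 39 other integrated stress response genes tested, Gpt2, a mitochondrial alanine aminotransferase, was called higher at 121, 74.0 and 88.9 CPM against 47.5, 53.8 and 66.8 CPM (log2 fold change 0.75, adjusted p = 0.0433, same test). Gpt2 was no longer called without Cre- MPTP replicate 3, Cre- Saline replicate 1 or Cre- Saline replicate 2 (adjusted p = 0.0658, 0.185 and 0.181). In the other comparisons no gene of these lists was called, with 9, 11 and 9 genes of the heat shock, ER and integrated stress response lists at an unadjusted p under 0.05 between the genotypes under MPTP, against 19% of all genes. Without Cre- MPTP replicate 1, the Cre- comparison called 2 of 43, 5 of 39 and 4 of 39 genes of the lists, against 9.38% of all genes tested in that fit. The ER genes were Crebrf, Serp1, Nucb2 and Edem3, which rose, and Atf6b, which fell. The heat shock genes were Cryab and Hspbp1, both lower, and the integrated stress response genes were Eif2ak2, Gpt2 and Ppp1r15b, which rose, and Phgdh, which fell. Between the genotypes under MPTP, the fit without replicate 1 called Crebrf (log2 fold change -0.37, adjusted p = 0.0451) and the amino acid transporter gene Slc3a2 (log2 fold change -0.47, adjusted p = 0.0126), both lower in Cre+ mice. The share of all genes called in that fit was 3.18%.

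The departures of Cre- MPTP replicate 1 varied with the base composition of the transcripts. Its deviation from the median of the 13 libraries correlated across the 46 members with GC content of the longest transcript (Spearman's rho 0.74) and with exon length (rho -0.589), over genes that share 1 library, and the other 12 libraries ranged from -0.417 to 0.296 for GC content. Over all genes tested, its median deviation rose from -0.78 to 1.08 on the log2 scale between the lowest and highest of 5 equal bins of GC content. Of the 26 members at or above 50% GC, 21 lay above 0 in this library, against 5 of the 20 members below 50% GC. At or above 50% GC, Hspa1a, Hspb1, Sdf2l1, Manf and Ddit4 lay above 0. Hsp90ab1 (-1.41), Hyou1 (-0.557) and Ern1 (-0.545) were among those below 0 there. Under 50% GC, Hsp90aa1, Hsp90b1, Canx and Atf6 lay below 0, whereas Dnajb9 (1.19) and Edem1 (0.706) were among those above it. With a trend on GC content removed from every library, a setting chosen after the data were seen, Hspb1 (3.11) and Ddit4 (1.65) were still called with MPTP in Cre- mice, along with Atf5, Pdia4 and Dnajb2, against 4.68% of all genes. Between the genotypes under MPTP Hspb1, Ddit4 and Atf5 were called, against 2.32%. The cause of the composition difference in this library was not tested.

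**Figure D4:**
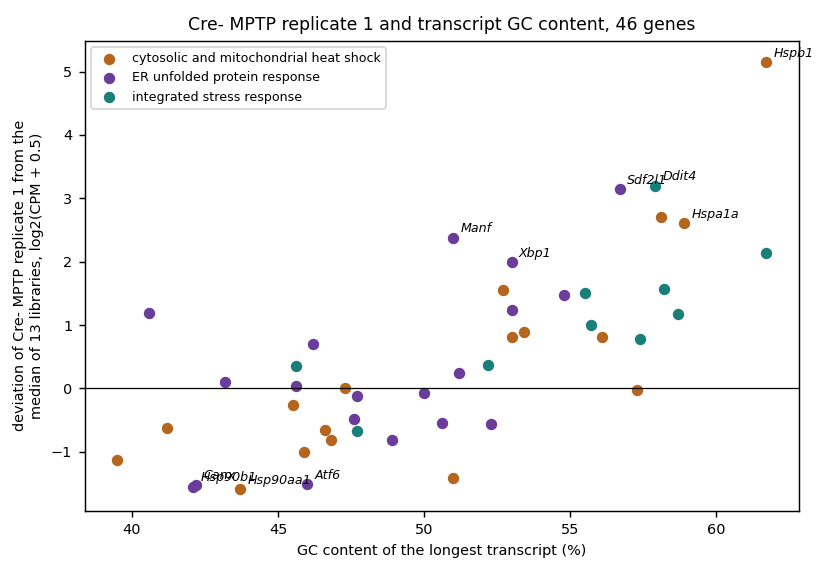
Each point is 1 of the 46 genes, with transcript GC content in percent on the x axis and, on the y axis, the deviation of Cre- MPTP replicate 1 from the median of the 13 libraries in log2(CPM + 0.5), coloured by class. Values run from -1.59 (Hsp90aa1) to 5.15 (Hspb1), and at or above 50% GC 21 of 26 genes lie above 0.

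One other library bore on the small heat shock genes. Cre+ MPTP replicate 4 had 6890 CPM summed over 8 skeletal and cardiac muscle genes, against 26.4 to 172 CPM in the other 12 libraries. In it Hspb8 was 58.2 CPM against 17.3 to 45.4 CPM elsewhere, and its co-chaperone Bag3 was 38.1 CPM against 10.4 to 33.1 CPM. Hspb1 was 24.9 CPM there and 25.9 CPM in Cre+ MPTP replicate 2, where the muscle genes were not raised to that level. With this library and Cre- MPTP replicate 1 both left out, Hspb8 was called higher with MPTP in Cre- mice and lower in Cre+ than Cre- mice under MPTP, against 10% and 2.91% of all genes called in those fits, and the part of muscle RNA in these values was not tested.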

How the data were processed

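Midbrain RNA of 13 mice had been made into stranded total RNA libraries. Per the labels and the study's methods, the authors trimmed reads with Trimmomatic 0.36, aligned them to GRCm38 with STAR 2.5.2b and used featureCounts of Subread 1.5.2 to count uniquely mapped reads in genes. The strand setting and the annotation release are not given in the sources used here, so overlapping genes, such as Hspd1 and Hspe1, are uncertain. The deposited values are raw counts per Ensembl gene, and groups came from the labels.

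The 19360 genes reaching 10 counts in 3 or more libraries were tested with edgeR 4.0.16 (TMM, quasi-likelihood test, 1 term per group over all 13 libraries) in R 4.3.3, with Benjamini-Hochberg adjustment over all of them and calls at an adjusted p under 0.05. CPM used TMM library sizes. SE was the absolute log2 fold change divided by the square root of F. Alternatives were DESeq2 1.42.0, limma-voom with sample weights (limma 3.58.1), fits to the compared groups, DESeq2 size factors, no filter and a minimum of 50 counts, a replicate block and leaving out libraries. A GC trend was removed after the data were seen, and the scripts were tested on simulated data. Total counts of 11489150 to 29397278 set the precision, and p-values measure the spread between mice.

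Named members were those called in any comparison, the 3 most abundant per class by CPM per kb, and the sensors and master factors. Others named were chosen after their values were seen. The members and lists were chosen with earlier results of these data known.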

Additional observations from a re-analysis of the deposited data

Results flagged for a closer look

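Among the 46 members in the group of 4 Cre+ MPTP mice, 4 had 1 mouse that lay far from the other 3 by Dixon's criterion, where chance marks about 1 in 20. In Cre+ MPTP replicate 2, Hspa1b was 12.1 CPM (next 3.89), Dnajc3 was 88.2 CPM (next 80.9) and Atf4 was 138 CPM (next 95.8). In Cre+ MPTP replicate 4, Atf3 was 1.91 CPM (next 0.887).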

How the results depend on the processing

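The number of members called with MPTP in Cre- mice (2) was 9 with DESeq2, 11 with limma-voom, 0 in the fit to the compared groups, 9 with Cre- MPTP replicate 1 and Cre+ MPTP replicate 4 both left out, 5 with the GC trend removed and 6 with that and replicate 1 left out. For the genotypes under MPTP (2) it was 6 with limma-voom, 0 in the compared groups and 5 with both libraries left out. In these 2 comparisons the share of all genes called is not given for DESeq2, limma-voom or the fits to the compared groups. Those counts therefore cannot be set against a background. With the GC trend removed and Cre- MPTP replicate 1 left out, 1616 of 19311 genes tested were called with MPTP in Cre- mice. For MPTP in Cre+ mice the number of members called was 1 with DESeq2, 2 with limma-voom and 1 with both left out, for the genotypes under saline 1 with either tool, and for the interaction 1 with DESeq2, 5 with limma-voom, 1 with both left out and 1 with GC and replicate 1 removed. Leaving out 1 mouse at a time gave 0 to 7, 0 to 10, and 0 to 1 members for MPTP in Cre- mice, the genotypes under MPTP and the interaction, with 10 without Cre- MPTP replicate 2. For most of these fits the share of all genes called is not given. Deviations from the group means were no more alike in mice of the same replicate number (correlations from -0.179 to 0.184) than of different numbers (-0.182 to 0.239). Such correlations cannot exclude that mice were paired by number. With the replicate block 1 and 0 members were called in the first comparisons.

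With MPTP in Cre- mice, the heat shock median was -0.0532 with limma-voom, -0.00649 with both libraries left out, 0.0469 with GC removed, -0.0552 with GC and replicate 1 removed, and -0.256 to -0.0174 when single mice were left out. Between the genotypes under MPTP it was 0.0303, 0.0423, -0.0337, 0.0574 and 0.0775 to 0.192. The ER median was 0.468 with GC removed and 0.165 with GC and replicate 1 removed in the former, and -0.19 with GC removed in the latter, where single mice gave -0.0577 to 0.086. The integrated stress response median was 0.228 with limma-voom, 0.221 with both left out and 0.212 to 0.832 for single mice in the former, and -0.189, -0.19 and -0.883 to -0.154 in the latter, with -0.198 for GC and replicate 1 removed.

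Signs turned for genes that edgeR did not call over all 13 libraries. With MPTP in Cre- mice these were Canx (0.0485 with both left out, -0.531 to 0.038 for single mice), Asns (0.000163 with limma-voom), Atf4 (-0.00468 to 0.851), Ern1 (-0.0574 to 0.32), Hsf1 (-0.1 with limma-voom, -0.127 with both left out, -0.0839 with GC and replicate 1 removed, -0.138 to 0.481 for single mice), Atf6 (-0.0618 with the replicate block, -0.287 to 0.388), Ddit3 (-0.054 with GC and replicate 1 removed, -0.0248 to 0.232), Dnajb1 (-0.00649 with both left out, -0.0174 to 0.992) and Hspa1a (-0.135 with limma-voom, -0.13 with both left out, -0.143 to 1.95). Between genotypes under MPTP Hspa1a was 0.22, 0.289 and, with GC and replicate 1 removed, 0.201 (-1.84 to 0.252 for single mice). The cause was not tested.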

Other observations

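The small heat shock genes Hspb7, Hspb6, Hspb2, Hspb3 and Cryab, which muscle expresses, each had their highest value in Cre+ MPTP replicate 4, the library with 6890 CPM from muscle genes. Hspb6 and Cryab were detected in every library. Hspb7, the cardiovascular small heat shock protein, was 206 CPM there and 0 to 3.67 CPM in the other 12 libraries. Hspb6 was 74.3 CPM against 5.51 to 42.1 CPM, Hspb2 was 7.06 CPM against 0.266 to 1.41 CPM, and Hspb3 was 1.11 CPM against 0 to 0.48 CPM. Cryab was 165 CPM against 34.5 to 130 CPM. These genes were chosen after their values were seen.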
